A study of Arabidopsis thaliana with 6 samples.

Results

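The chloroplast and mitochondrial genomes of Arabidopsis thaliana were each represented in the gene count files by their own loci, 133 with identifiers beginning ATCG (chloroplast) and 146 with identifiers beginning ATMG (mitochondrion), 279 of the 33602 loci counted. The members were chosen by these identifiers alone, with no measured value used. RNA sequencing was done on the aerial parts of 11-day-old Col-0 seedlings from long days (16 h light and 8 h dark), collected at ZT5, that is 5 h after lights on. Wild type (3 libraries) was compared with the snl1/2/3/4/5 quintuple mutant in the same Col-0 background (3 libraries), which the labels call snl12345 and which carries mutations in 5 SIN3 LIKE genes, homologues of a scaffold protein of histone deacetylase complexes. The labels call the replicates biological and do not say which alleles the mutant holds or how many plants went into a library. Libraries are named below by genotype and replicate number, and values in a row are always in the order wild type 1, 2 and 3, then mutant 1, 2 and 3.

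Plant chloroplasts and mitochondria keep small genomes of their own that encode ribosomal and transfer RNAs, some ribosomal proteins and core subunits of the photosynthetic and respiratory complexes. Chloroplast genes are transcribed by a plastid-encoded polymerase, whose sigma factors and accessory proteins come from the nucleus, and by nuclear-encoded phage-type polymerases, which alone transcribe the mitochondrial genome. Organelle transcripts mostly lack the long poly(A) tails of nuclear messengers, so the way a library selects RNA sets how much of them it records. The labels name total RNA (1.0 µg) and a directional library kit and do not say whether polyadenylated RNA was selected or ribosomal RNA removed.

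The totals of the libraries were 12622416 to 15774357 counted reads. Reads of each of the 5 mutated genes were reduced, with SNL2 at 1424, 1430 and 1365 reads in wild type, against 30, 42 and 99 in mutant plants, and SNL3 at 1152, 1106 and 1049 against 33, 32 and 92. SNL5 kept the most reads (697, 734 and 678 against 341, 394 and 348; log2 fold change -0.92, standard error 0.08, edgeR adjusted p = 0.000213), and where in each gene the remaining reads lie was not analysed here. The 4 shoot markers tested were not called, and their summed level was 40503 to 44052 CPM (read counts scaled to a common library size) in wild type and 37773 to 46500 CPM in mutant libraries. RBCS1A, CAB1 and RCA overlapped between groups. LHCA1 did not, at 8584, 8590 and 8318 CPM in wild type, against 7127, 7750 and 7810 CPM in mutant plants (log2 fold change -0.17, edgeR adjusted p = 0.19). Of the 6 root markers 1 was higher, PYK10, a beta-glucosidase of root ER bodies, at 1163, 1126 and 1110 CPM in wild type, against 3081, 2763 and 2268 CPM in mutant plants (log2 fold change 1.25, standard error 0.12, adjusted p = 0.00033). Of the other 5, 4 were tested and not called, and the remaining one, NRT2:1, had 2, 1 and 1 reads in wild type and none in the mutant. PYK10 has an overlapping gene on the other strand, and the sources used here do not say whether counting used strand, so reads of such a pair cannot be told apart.

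The mitochondrial genes overlap with the nucleus in sequence, which bears on every mitochondrial count below. In RefSeq's TAIR10.1 assembly, 72.9% of the 367808 bases of the mitochondrial genome had a nuclear copy of at least 99% identity. For 72.7% of all bases of that genome there was a copy on chromosome 2, so nearly all of the copied part lay there. Of the 154478 bases of the chloroplast genome, 0.403% had such a nuclear copy. The first 90 coding bases of atp9 and cob are shown with those of their nuclear copies, whose genome sequence has the same letters. These genes encode a subunit of the membrane ring of ATP synthase and the apocytochrome b of the respiratory chain. The sequences of the RNA reads themselves were not examined. The mitochondrial stretches lie at positions 271096 to 271185 (atp9, minus strand) and 182769 to 182858 (cob, minus strand) of the mitochondrial genome. The nuclear ones lie on chromosome 2 at 3251991 to 3252080 (AT2G07671, minus strand) and 3450863 to 3450952 (AT2G07727, plus strand). The lines are in lower case throughout, since no base differs between the members of a pair.
atp9: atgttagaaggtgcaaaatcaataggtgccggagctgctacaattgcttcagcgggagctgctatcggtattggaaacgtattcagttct
AT2G07671: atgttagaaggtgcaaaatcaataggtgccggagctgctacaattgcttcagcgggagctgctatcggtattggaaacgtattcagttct
cob: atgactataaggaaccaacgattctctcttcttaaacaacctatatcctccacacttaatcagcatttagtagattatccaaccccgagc
AT2G07727: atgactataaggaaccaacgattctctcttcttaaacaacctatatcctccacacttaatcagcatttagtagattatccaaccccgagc
Over their whole alignments, 225 bases for atp9 and 1182 bases for cob, there were 0 mismatches, and the same held for the 798 bases of cox3, cytochrome c oxidase subunit 3, and its copy AT2G07687. The build named for the files is TAIR10, and the sources used here do not give the mitochondrial sequence the reads were aligned to, nor how reads with several matches were counted.

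RefSeq's annotation carries none of the 279 locus identifiers as a locus tag. Names came only from RefSeq's notes on nuclear genes that give an organelle gene as best protein match, which named 51 loci, 6 of the chloroplast and 45 of the mitochondrion. The other loci are printed by their identifiers and are given no role. Without their lengths, read counts of different loci are not compared as levels per length, and the order of loci below is an order of reads.

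Organelle reads were a small part of every library. Chloroplast loci took 0.112%, 0.0664% and 0.108% of the counted reads in wild type, against 0.114%, 0.0486% and 0.0381% in mutant plants. Each value came from 5163 to 16999 reads, and the 95% Wilson interval was 0.110% to 0.114% for wild type 1 and 0.0371% to 0.0392% for mutant 3, which covers counting error only. Mutant 1 held the highest share of all 6 libraries and mutant 3 the lowest, so the groups overlapped. The means were 0.0955% ± 0.0253 in wild type and 0.0669% ± 0.0412 in the mutant (SD, n = 3 each; exact permutation test, two-sided, p = 0.4, with 0.1 the smallest p that 3 against 3 libraries can give). Mitochondrial loci took 0.0423%, 0.0265% and 0.0424% in wild type, against 0.0683%, 0.0323% and 0.0228% in mutant plants. Here too mutant 1 was highest and mutant 3 lowest, and the means of 0.0371% ± 0.00913 and 0.0411% ± 0.0240 (SD, n = 3 each) did not separate (exact permutation p = 0.9). Without mutant 1 the mean mitochondrial share of the mutant lay below that of wild type instead of above it (log2 ratio -0.43, against 0.15 with all libraries), and without wild type 2 it was -0.04. The chloroplast share stayed lower in the mutant without mutant 1, by more (log2 ratio -1.14 against -0.51).

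**Figure D1:**
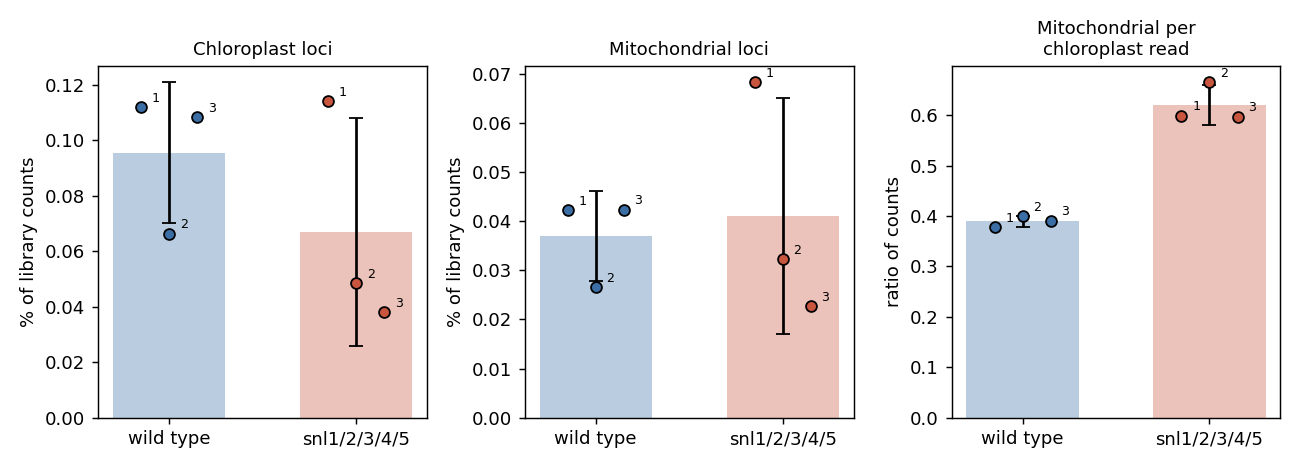
Percent of counted reads at chloroplast loci (left) and mitochondrial loci (middle) and the number of mitochondrial reads per chloroplast read (right), for 3 wild type and 3 mutant libraries. Bars are means, error bars are SD and points are libraries with their replicate number; the groups overlap in both shares, while the ratio is 0.378 to 0.400 in wild type and 0.597 to 0.665 in the mutant.

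The ratio between the 2 genomes was far steadier than either share. Wild type held 0.378, 0.400 and 0.391 mitochondrial reads per chloroplast read, and the mutant 0.599, 0.665 and 0.597. Every mutant library lay above every wild type library, with means of 0.390 ± 0.0109 and 0.620 ± 0.0387 (SD, n = 3 each), a ratio of 1.59. The exact permutation p was 0.1, the smallest this design allows, and 0.6 after adjustment over the 6 library measures tested, so the difference did not pass correction although it was seen in 3 of 3 mutant libraries. This measure was chosen after its values were seen. It also held apart for the 3 loci with the most reads in each genome (0.808, 1.02 and 0.816 against 1.29, 1.57 and 1.49) and for all remaining loci (0.0414, 0.0510 and 0.0424 against 0.0675, 0.0846 and 0.0766). In bulk libraries, fewer organelles or genome copies per cell, fewer cells that hold them and less RNA per genome cannot be told apart.

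Most chloroplast loci tested had fewer reads per library size in the mutant, but few passed the test. Of the 133 chloroplast loci, 15 had no read in any library, 34 had reads but too few for the filter (roughly 10 reads in 3 libraries) and 84 were tested. Of these, 82 had a negative log2 fold change (mutant over wild type) and 2 a positive one, with a median of -0.55 and a range from -1.10 to 0.29, while the median of all 19591 genes tested was 0.00. The median was -0.99 without mutant 1, -0.35 without mutant 2 and -0.33 without mutant 3, and 13, 11 and 11 loci were positive without wild type 1, mutant 2 and mutant 3. A locus can pass the filter through the libraries of 1 group, so these counts describe the loci tested and not all members. By edgeR's quasi-likelihood test with Benjamini-Hochberg adjustment over all genes, 7 of the 84 (8.33%) were lower in the mutant and 0 were higher, with 14 at an unadjusted p below 0.05. Over all genes tested 16.5% were called lower and 18.3% higher, so the calls among chloroplast loci were no more frequent than elsewhere. In 8 of the 84 loci every mutant library lay below every wild type library in CPM, against 24.6% of all genes, and in 0 loci above, against 25.2%. The count of lower loci depended on single libraries: it was 49 (58.3%, against 15.3% of all genes) without mutant 1, 3 without mutant 2, 3 without mutant 3 and 4 without wild type 3.

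**Figure D2:**
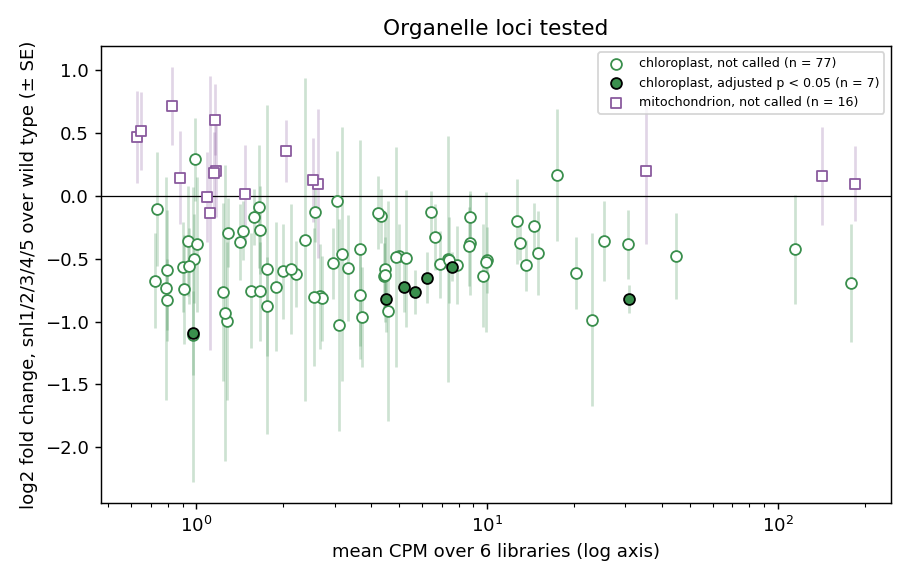
Log2 fold change of the mutant over wild type (vertical axis, lines are ± 1 standard error) against mean CPM over 6 libraries (log axis) for the 84 chloroplast loci (circles) and 16 mitochondrial loci (squares) tested by edgeR. Filled circles are the 7 chloroplast loci with an adjusted p below 0.05; 82 chloroplast loci lie below 0 and 14 mitochondrial loci above it.

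The most firmly lower locus was ATCG00480, with 633, 532 and 533 reads in wild type, against 333, 316 and 278 in mutant plants. The libraries of each group lay close together and the groups did not overlap. Its CPM, scaled by TMM factors as are all CPM of single loci, was 39.4 ± 3.13 in wild type and 22.3 ± 3.07 in the mutant (SD, n = 3 each; log2 fold change -0.82, standard error 0.11, edgeR adjusted p = 0.00138). Its neighbour in the locus numbering, ATCG00470, had 149, 126 and 116 reads against 82, 95 and 79 (log2 fold change -0.56, adjusted p = 0.0074). ATCG00180 had 105, 124 and 79 reads in wild type, against 60, 57 and 57 in mutant plants (log2 fold change -0.77, adjusted p = 0.0108). In these 3 loci the groups stood apart, and the call was kept under all 14 alternatives, of which the adjusted p was at most 0.0483.

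The other 4 called loci held fewer reads or more variable ones. ATCG00530, which the notes name as CemA-like proton extrusion protein-related, a protein of the chloroplast envelope, had 90, 106 and 128 reads against 70, 78 and 54 (log2 fold change -0.65, adjusted p = 0.0368). ATCG00070 had 84, 84 and 108 against 59, 57 and 47 (-0.72, adjusted p = 0.0237). ATCG00160, the largest fall among the called loci at 20, 25 and 13 reads against 11, 8 and 7 (-1.09, adjusted p = 0.0347), rested on few reads. ATCG00220 had 106, 64 and 77 against 56, 37 and 41 (-0.82, adjusted p = 0.0392), and wild type 2 overlapped mutant 1 in CPM. Each of these 4 lost its call on leaving out some library: wild type 3, mutant 2 or mutant 3 for ATCG00070, wild type 1, wild type 2, mutant 2 or mutant 3 for ATCG00160, wild type 1, wild type 3, mutant 2 or mutant 3 for ATCG00220, and wild type 2, wild type 3, mutant 2 or mutant 3 for ATCG00530. Their adjusted p then reached 0.0897, 0.125, 0.147 and 0.109. ATCG00160 was also not called by DESeq2 (adjusted p = 0.115).

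The 2 loci with the most chloroplast reads, ATCG00020 and ATCG00490, did not pass the test. ATCG00020 had 4180, 1719 and 3581 reads in wild type, against 3169, 1499 and 929 in mutant plants (log2 fold change -0.69, standard error 0.47, adjusted p = 0.279). ATCG00490 had 2413, 1265 and 1998 against 2298, 1031 and 687 (-0.43, standard error 0.43, adjusted p = 0.469). In both, wild type 2 was the lowest wild type library and mutant 1 lay far above mutant 2 and mutant 3. Leaving out mutant 1 brought both past the threshold, with log2 fold changes of -1.42 (adjusted p = 0.0202) and -1.17 (adjusted p = 0.0129). Of the next 4 loci by reads, ATCG00280, ATCG00340 and ATCG00350 were not called (log2 fold changes of -0.48, -0.39 and -0.36, with adjusted p from 0.304 to 0.403), and the other was ATCG00480. The 3 highest chloroplast loci together held 35.9% to 45.1% of chloroplast reads per library.

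Of the 6 chloroplast loci that the notes name, 5 were tested and only that of the CemA-like protein was called. ATCG00430 had 36, 41 and 38 reads against 32, 21 and 19 (log2 fold change -0.62, adjusted p = 0.101), and mutant 1 lay within the wild type range of CPM. The note at the nuclear gene AT5G11770 calls it photosystem II reaction center protein G. That name was not checked, and it does not show that the locus encodes a photosystem II protein. ATCG00670, the plastid-encoded proteolytic subunit ClpP, had 153, 115 and 131 against 137, 113 and 93 (-0.17, adjusted p = 0.509). Of the chloroplast ribosomal proteins, S11 at ATCG00750 had 24, 26 and 22 reads against 23, 22 and 17 (-0.17, adjusted p = 0.6), and L20 at ATCG00660 had 18, 14 and 7 against 17, 16 and 13 (0.29, adjusted p = 0.528). L20 was the locus with the highest log2 fold change of the 84 and still did not pass the test. The locus of L2, ATCG01310, held 0 or 1 read in each library and was not tested. Copies within the chloroplast genome were not searched for, and how reads with several matches were counted is not given. That count therefore does not show that its RNA was nearly absent. At the edge of the filter, ATCG00600, with 12, 10 and 16 reads against 10, 7 and 6, was just tested (log2 fold change -0.67, adjusted p = 0.194), and ATCG00620, with 9, 8 and 11 against 8, 6 and 5, was just left out.

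As a share of chloroplast reads, few loci separated the groups. The share of ATCG00480 was 4.29% ± 0.95 in wild type and 3.94% ± 1.54 in the mutant (SD, n = 3 each; exact permutation p = 0.9), although its CPM was called lower. The share of ATCG00020 was 22.4% ± 4.36 and 19.9% ± 2.02 (exact permutation p = 0.4), and that of ATCG00490 was 13.7% ± 0.775 and 14.2% ± 1.49 (exact permutation p = 0.8). All 3 overlapped between groups. Among the 84 tested loci, 1 had a higher share in every mutant library than in every wild type library, ATCG00800 at 0.470% ± 0.0464 and 0.654% ± 0.128. Only ATCG00380 had a lower share in every mutant library, at 0.203% ± 0.00806 and 0.169% ± 0.0442. Their exact p of 0.1 each is the smallest possible, and both were named after their values were seen. None of the 16 mitochondrial loci tested separated in this way.

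Some chloroplast loci varied more between libraries of 1 genotype than between genotypes. ATCG01160 had 72, 1 and 40 reads in wild type, against 82, 0 and 1 in mutant plants. ATCG00970 had 67, 1 and 22 against 56, 0 and 0, and ATCG00400 had 249, 18 and 105 against 204, 18 and 22. Wild type 1, wild type 3 and mutant 1 were the high libraries in each, and wild type 2, mutant 2 and mutant 3 the low ones. The same libraries were high and low in ATCG01170 (51, 0 and 20 against 32, 1 and 2), ATCG00960 and ATCG00700, which with these were the 6 tested chloroplast loci with the largest ratio of highest to lowest wild type library in CPM. Among the 15 chloroplast loci of at least 10 CPM, the median SD of log2(CPM + 1) was 0.27 in wild type and 0.62 in the mutant, and among the 3 mitochondrial loci it was 0.53 and 0.82. Over the 12306 genes of that level it was 0.08 and 0.11.

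**Figure D3:**
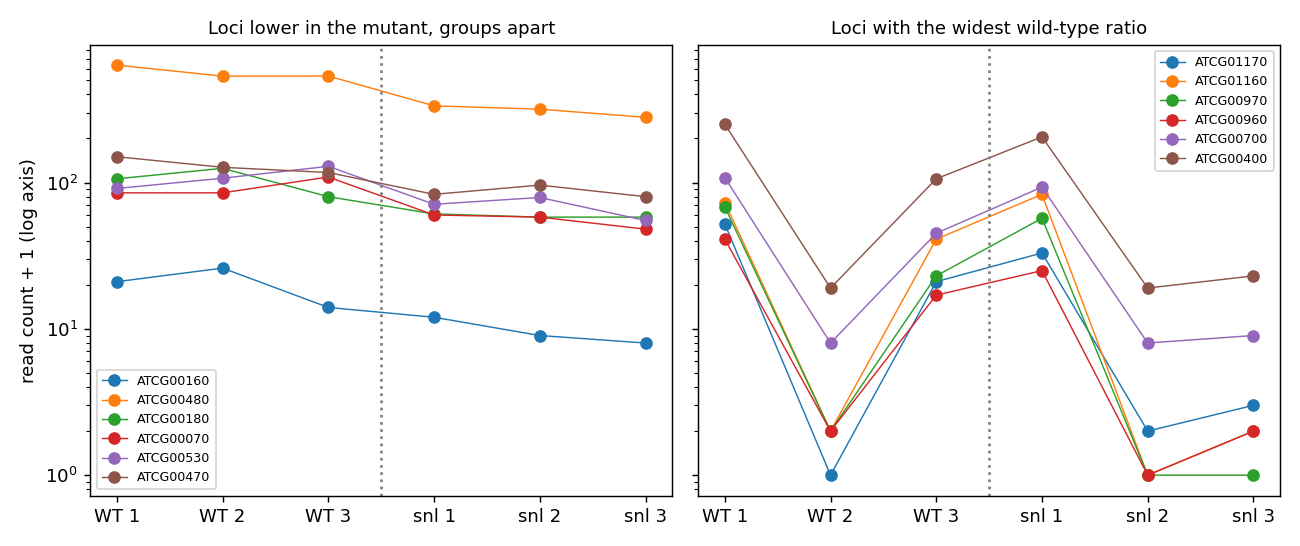
Read counts plus 1 (log axis) in each of the 6 libraries for the 6 called chloroplast loci whose groups do not overlap in CPM (left) and the 6 with the largest ratio of highest to lowest wild type library (right). Lines join the counts of a locus and stand for no order; on the right, wild type 1, wild type 3 and mutant 1 are high and wild type 2, mutant 2 and mutant 3 are low.

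The same libraries were high and low for 1 of the 4 nuclear ribosomal RNA loci. An 18S rRNA locus, AT3G41768, stood at 1721, 593 and 1402 CPM in wild type, against 2131, 752 and 535 CPM in mutant plants. In this text, 18S rRNA stands for this locus alone. The other 3 ribosomal RNA loci did not follow this order: AT3G41979 stood at 14.2, 14.0 and 11.6 CPM against 11.8, 9.19 and 10.3 CPM, AT2G01020 at 7.24, 6.72 and 3.98 CPM against 2.54, 2.22 and 2.73 CPM, and AT2G01010 at 2.11, 2.49 and 1.76 CPM against 1.43, 1.01 and 1.402 CPM. Another 18S rRNA locus may be among these 3, whose kind is not given here. How reads that match several ribosomal RNA loci were counted is not given either. The U1 small nuclear RNA AT1G08115, of the spliceosome, followed the order of AT3G41768 at 5.00, 0.202 and 4.21 CPM against 9.27, 0.571 and 0.0738 CPM. The summed small nucleolar RNAs did not, at 33.5, 33.3 and 38.3 CPM against 37.4, 37.7 and 31.7 CPM. Per 18S rRNA read, chloroplast reads were 0.650, 1.12 and 0.773 in wild type, against 0.535, 0.646 and 0.712 in mutant plants (exact permutation p = 0.2), and mitochondrial reads were 0.246, 0.447 and 0.302 against 0.320, 0.429 and 0.425 (exact permutation p = 0.5). The groups overlapped in both. The part of whatever sets the 18S rRNA share in the organelle differences was not tested.

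**Figure D4:**
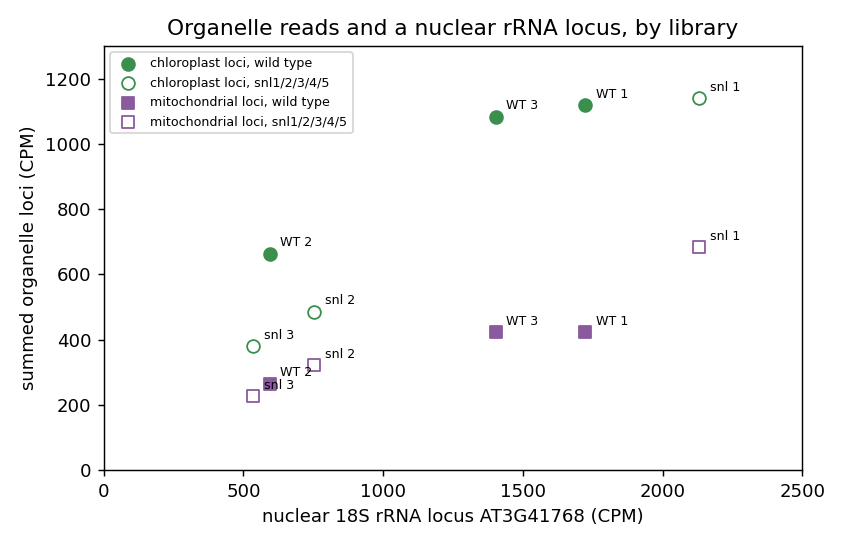
Summed CPM of chloroplast loci (circles) and mitochondrial loci (squares) against the CPM of a nuclear 18S rRNA locus, AT3G41768, 1 point per library and genome, filled for wild type and open for the mutant. The 3 libraries with 1402 to 2131 CPM of 18S rRNA hold the highest chloroplast values, and the 3 mutant libraries have more mitochondrial reads for their chloroplast reads.

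Mitochondrial loci gave no call. Of the 146, 73 had no read in any library, 57 had reads but were not tested and 16 were tested. No read among 85084498 counted reads allows up to 0.0353 CPM, a limit that covers counting error only. Of the 16 tested, 14 had a positive log2 fold change and 2 a negative one, with a median of 0.17. By edgeR 0 passed the adjusted threshold in either direction, with 1 at an unadjusted p below 0.05, and DESeq2 and limma-voom also called 0. In 4 of the 16 every mutant library lay above every wild type library in CPM, against 25.2% of all genes. The direction depended on single libraries: 10 of 20 were positive without mutant 1 and 9 of 19 without wild type 2.

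The 3 mitochondrial loci with the most reads held 91.8% to 94.0% of mitochondrial reads per library. ATMG00020 had 2892, 2137 and 2627 reads in wild type, against 3854, 2427 and 1571 in mutant plants (log2 fold change 0.09, standard error 0.30, adjusted p = 0.826). ATMG01390 had 2472, 1258 and 2065 against 3231, 1933 and 1055 (0.16, standard error 0.39, adjusted p = 0.776), and ATMG00030 had 668, 228 and 514 against 984, 341 and 207 (0.20, adjusted p = 0.814). By reads, mutant 1 was the highest library and mutant 3 the lowest in each of the 3, and in CPM mutant 3 and wild type 2 lay side by side at the bottom for ATMG01390 and ATMG00030. As shares of mitochondrial reads they hardly moved, ATMG00020 at 48.9% ± 4.74 and 47.8% ± 3.12 (SD, n = 3 each; exact permutation p = 0.7) and ATMG01390 at 35.9% ± 3.51 and 36.5% ± 2.03 (exact permutation p = 0.8). The largest log2 fold change was that of ATMG00110, with 9, 12 and 6 reads against 14, 14 and 15 (0.71, edgeR adjusted p = 0.108). ATMG01170 (11, 8 and 4 reads against 9, 13 and 9) was just inside the filter and ATMG00080 (7, 10 and 7 against 17, 14 and 6) just outside it.

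The mitochondrial genes named here with a respiratory function held few reads. Mitochondrial loci were named only through notes on nuclear partners, so each of these genes has a nuclear partner. Respiratory genes among the unnamed loci are not covered. ATMG01080, F0-ATPase subunit 9, had 58, 15 and 36 reads in wild type, against 69, 24 and 18 in mutant plants (log2 fold change 0.09, adjusted p = 0.916), with the high and low libraries those of the 18S rRNA. Its nuclear copy AT2G07671, identical over 225 of its 258 coding bases, had 20, 8 and 20 reads against 27, 13 and 8. Cytochrome c oxidase subunit 3, ATMG00730, had 6, 11 and 8 against 23, 10 and 2, and its copy AT2G07687 had 11, 6 and 5 against 16, 4 and 3. The apocytochrome b locus ATMG00220 had 0 reads in all 6 libraries, whereas its identical copy AT2G07727 had 15, 9 and 9 against 18, 17 and 13 (log2 fold change 0.58, standard error 0.30, adjusted p = 0.166). ATP synthase subunit 1, ATMG01190, had 0, 2 and 1 reads against 4, 2 and 2, and its copy AT2G07698 had 20, 14 and 21 against 20, 19 and 15. The reverse was seen for ATPase subunit 6-1, ATMG00410, with 4, 4 and 6 reads against 11, 6 and 8 and none at the nuclear locus paired with it.

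Over the 45 mitochondrial loci that the notes pair with a nuclear gene, 15 had no read while the nuclear partner had some, 7 had reads while the partner had none, 14 had reads in both places and 9 in neither. The mitochondrial loci of these pairs held 483 reads over the 6 libraries and the nuclear partners 784. In the assembly, 133 nuclear loci were covered for at least 80% of their length by mitochondrial sequence of at least 95% identity, 130 of them on chromosome 2, and 76 had reads. Their summed reads were 446, 425 and 358 in wild type, against 512, 504 and 336 in mutant plants, a narrower range than that of the 18S rRNA. Of these nuclear loci 10 were tested, with 0 called lower and 1 higher, against 16.5% and 18.3% of all genes. Identity was compared base by base for atp9, cob and cox3 only, in genome sequence and not in reads. For cob, with 0 reads at the mitochondrial locus, the genome sequences of both places have the same letters. That count therefore does not show that its RNA was absent.

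The first 4 nuclear lists held sigma factors, phage-type polymerases, proteins associated with the plastid-encoded polymerase and organelle ribonucleases. All 26 genes of these 4 lists were tested. Of them, 3 (11.5%) were higher and 6 (23.1%) lower, against 18.3% and 16.5% of all genes. The remaining list, genes known to respond to mitochondrial dysfunction, is given apart. Over all 5 lists 31 genes were tested, with 6 higher and 6 lower (19.4% each), near the shares of all genes. Among the 6 sigma factors, which direct the plastid-encoded polymerase to promoters, SIGE (SIG5) rose, at 47.8, 47.2 and 50.4 CPM in wild type, against 52.0, 73.2 and 96.6 CPM in mutant plants (log2 fold change 0.61, standard error 0.19, adjusted p = 0.0359). SIGF (SIG6) fell from 81.9, 87.7 and 84.6 CPM to 54.7, 64.9 and 74.2 CPM (-0.39, standard error 0.11, adjusted p = 0.0223). In both, the groups stood apart, and the mutant libraries were more spread than those of wild type. SIGA, SIG2, SIGC and SIG4 were not called, with log2 fold changes from -0.14 to -0.01. The 3 phage-type polymerases were not called either, with log2 fold changes of -0.11, -0.13 and 0.26 and adjusted p from 0.131 to 0.395.

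Of the 12 proteins associated with the plastid-encoded polymerase, 3 fell and 1 rose, while 16.5% of all genes were called lower and 18.3% higher. PTAC2 went from 39.3, 38.5 and 41.8 CPM to 23.1, 26.9 and 31.6 CPM (log2 fold change -0.55, standard error 0.11, adjusted p = 0.00711). PTAC3 went from 70.8, 74.4 and 70.1 CPM to 55.1, 61.0 and 57.6 CPM (-0.31, adjusted p = 0.0103), and PTAC6 fell by 0.34 on the log2 scale (adjusted p = 0.0269). FSD2, a plastid iron superoxide dismutase, rose from 13.6, 15.02 and 14.1 CPM to 17.6, 19.5 and 18.5 CPM (0.38, adjusted p = 0.0111). The groups of all 4 stood apart.

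Of the 5 organelle ribonucleases, RNEE/G, the RNase E/G-type endonuclease of chloroplasts, fell most, from 45.6, 44.3 and 45.0 CPM to 27.4, 27.1 and 27.8 CPM (log2 fold change -0.71, standard error 0.07, adjusted p = 0.000317). Its libraries agreed closely within each group. RIF10, the chloroplast polynucleotide phosphorylase, fell by 0.20 on the log2 scale (adjusted p = 0.0418), and emb2746, the chloroplast RNase J, rose by 0.31 (adjusted p = 0.0234). RNEE/G and PTAC6 have an overlapping gene on the other strand, so their reads cannot be told apart from its reads.

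Of the 6 nuclear genes known to respond to mitochondrial dysfunction, 3 rose and 0 fell among the 5 tested. Among all genes tested, 18.3% were called higher and 16.5% lower. Whether this list of 5 differs from those shares was not tested, and the list was chosen with earlier results of these data known. AOX1A, the alternative oxidase of the respiratory chain, stood at 18.2, 16.8 and 21.2 CPM in wild type, against 25.8, 27.6 and 24.7 CPM in mutant plants (log2 fold change 0.48, standard error 0.10, adjusted p = 0.00913). AT2G21640 rose from 1.39, 1.15 and 1.74 CPM to 2.94, 3.40 and 2.90 CPM (1.12, standard error 0.22, adjusted p = 0.00591), and NAC13, a transcription factor of that response, by 0.48 (adjusted p = 0.0319), with an overlapping gene on its other strand. NDB2 and BCS1 were not called (0.38 and -0.41, with adjusted p of 0.0990 and 0.260). AOX1D had almost no reads and was not tested.

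**Figure D5:**
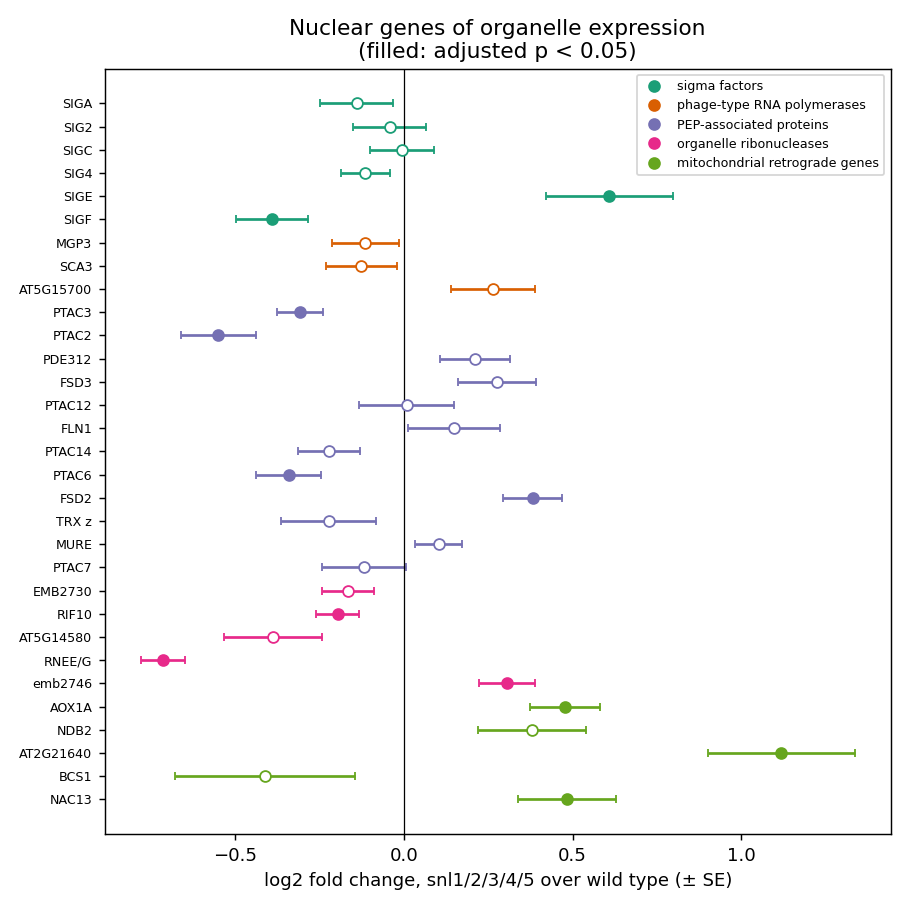
Log2 fold change of the mutant over wild type with ± 1 standard error for the 31 tested nuclear genes, by list. Of these, 26 belong to the lists of sigma factors, phage-type polymerases, polymerase-associated proteins and ribonucleases, and 5 respond to mitochondrial dysfunction. Filled points have an adjusted p below 0.05: 6 lie above 0 and 6 below it. Among the 26, 3 filled points lie above 0 and 6 below it.

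Of these 12 calls, 5 were kept under all 14 alternatives, those of PTAC2, PTAC3, RNEE/G, AOX1A and AT2G21640. The other 7 were lost on leaving out at least 1 library. The number of lower genes was 3 without any 1 of the wild type libraries or without mutant 2, and the number of higher genes was 2 without wild type 1 and 3 without wild type 3 or without mutant 2.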

How the data were processed

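Per the submitters' processing notes, the tools named are cutadapt 1.4, TopHat, HTSeq and edgeR with the TAIR10 build, with no parameters, strand setting or handling of reads with several matches given in the sources used here. The deposited files hold the authors' raw counts per locus, 1 file per library, whole numbers that were not normalized. The authors' deposited tables give log2 fold changes and FDR-adjusted p-values for 1175 genes, none of them an organelle locus. They were not used further, and 24 columns of per-sample values in them were not used.

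Counts were fitted over all 33602 loci with edgeR 4.0.16 (R 4.3.3) by its quasi-likelihood test on genotype alone, after filterByExpr (minimum count 10, minimum total 15) and TMM scaling, with Benjamini-Hochberg adjustment over the 19591 genes tested and a threshold of 0.05. CPM of single loci use TMM-scaled totals. Shares and summed CPM use the plain totals, and shares have 95% Wilson intervals. Values per library were tested by an exact two-sided permutation test over 20 relabelings (scipy 1.17.1). On simulated data of 19591 genes for this comparison, 84% of 100 genes changed 2-fold and 98% of 100 changed 3-fold were recovered, with 18 false calls. The changed genes were drawn at random from all genes tested, and each gene was simulated independently. Organelle loci of at least 10 CPM varied more between libraries, and some rose and fell in the same libraries. The rate of recovery for organelle loci was therefore not measured. Alternatives used limma 3.58.1 and DESeq2 1.42.0. Nuclear copies were found with BLAST+ 2.17.0 (at least 95% identity over 100 bases) in RefSeq's TAIR10.1, used for names, sequences and their positions only.

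Organelle loci were named by a rule: the 6 with the highest mean CPM per genome, called loci with the groups apart, a list of well-known organelle genes where annotated (cob and ATP synthase subunit 1 here), loci at the filter's edge and, from the nuclear lists, every called gene. ATCG00220 is called with overlapping groups, and the loci of widest range, those of separate share, the other loci the notes name, ATMG00110 and the 18S and U1 loci were added after their values were seen. The members, the nuclear lists and the tests were chosen with earlier results of these data known. Shares of functional classes (ribosomal RNA, transfer RNA, photosystems and the like) could not be formed, since most organelle loci carry no name in the sources used.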

Additional observations from a re-analysis of the deposited data

How the results depend on the processing

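Of 137 alternative values of counts of calls and of library ratios, 118 stayed within 1.5 times the reported count or kept the sign of the ratio, 11 counts moved by more and 8 ratios changed sign. Of 321 alternative values of single loci and genes, 265 kept direction and call, 50 lost the call, 2 gained one and 4 changed sign. With other scaling (DESeq2 size factors, library totals, nuclear genes only) 82 of the 84 chloroplast loci stayed negative and 7 were called lower. With 1 library left out in turn, the chloroplast loci called lower numbered 3 to 49, the nuclear genes called lower 3 to 8 and those called higher 2 to 7. The log2 ratio of the mitochondrial share was then -0.43 to 0.44, with -0.0423 without wild type 2 and -0.429 without mutant 1. The log2 ratio of the share within its genome was -0.0346 to 0.102 for ATCG00490, -0.0889 to 0.0474 for ATMG00020 (0.0474 without wild type 2 and 0.0125 without mutant 1) and -0.0517 to 0.0794 for ATMG01390 (-0.0517 without wild type 2, -0.00113 without mutant 2). For ATMG01390 it was also -0.00291 with the most abundant locus left out, and for ATCG00490 it was -0.0346 without mutant 1. The log2 fold change of ATMG00020 was -0.38 (without mutant 1) to 0.34 and -0.04 without wild type 2, and that of ATMG01390 -0.41 (without mutant 1) to 0.46 and -0.09 without wild type 2. The cause was not tested. Mitochondrial reads per chloroplast read kept a log2 ratio of 0.62 to 0.70 under all 8 alternatives.

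With the replicate block, 6 chloroplast loci were called lower: ATCG00160 and ATCG00530 lost the call (edgeR adjusted p = 0.0587 and 0.0723), ATCG00630 gained one (0.023, against 0.295 without the block), and RIF10 also lost its call (0.0797), while the counts of nuclear genes were 5 lower and 6 higher. What the replicate numbers share beyond a label was not established. Same-numbered libraries correlated at 0.0021, 0.157 and -0.0557 in their deviations from group means, and not every library correlated best with its own number. Deviations within a group are tied to each other through the group mean, so these correlations cannot decide whether the numbers pair the libraries. The ratio to 18S rRNA reads and that of mitochondrial to chloroplast reads were chosen after the data were seen. The alternatives that leave out ribosomal and transfer RNA loci were not run, since those loci carry no name in the sources used. For the chloroplast no near-identical nuclear copy was found to leave out by the notes, and copies within the chloroplast genome were not searched for. Reads sufficed to test 16 of 146 mitochondrial and 84 of 133 chloroplast loci.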
